A study of Mus musculus with 8 samples.

Results

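Hopx, Klf4, Tcf7l2 and Hnf4a are the 4 transcription regulators that the series title places beside claudins, the sealing proteins of tight junctions, in the colonic crypt. They were taken as every array probe annotated to their symbols, which gave 11 probes for 4 of the 17711 genes named on the array. Epithelium of the distal colon was collected by laser capture microdissection, in which chosen cells are lifted from a tissue section. The animals were untreated as far as the labels say: 4 wild-type male C57BL/6 mice, 10 to 12 weeks old, with no transgene or deletion in either group. Both regions were captured in each mouse, so that 4 surface samples stood against 4 crypt base samples. The RNA of each sample was amplified in successive rounds before it was hybridised to an Illumina bead array.

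A colonic crypt is a pit lined by a single sheet of epithelium, with stem and dividing cells toward its base and mature absorptive and goblet cells toward the gut surface. Wnt signals are strongest at the base, where TCF7L2 (also called TCF4) binds DNA and recruits beta-catenin to switch on genes of stem and dividing cells. KLF4 is a zinc-finger factor known for restraining cell division and for goblet cell differentiation in the mouse colon. HNF4A is a nuclear receptor known for driving genes of absorptive cells, and HOPX is a small homeodomain protein that does not bind DNA by itself and is used as a marker of slow-cycling stem cells in the mouse small intestine.

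Values are log2 signals as deposited, and changes are surface minus crypt base on that scale, with the standard error of the fit. A log2 signal of 5.52 marks background, as it is exceeded as often as a detection p-value under 0.05 occurs. Each array detected between 32.3% and 35.3% of its probes. Surface 4 was unlike the rest: 198 of its probes differed by over 2 log2 units from the median over the remaining arrays, while the remaining arrays had 6 to 33 such probes each. Labels were borne out in part by markers: all 6 tested markers of mature surface colonocytes were higher at the surface, with a median change of 1.73, and 4 of 7 tested markers of dividing cells were lower there, with a median of -0.42. Markers of intestinal epithelium as a whole were higher at the surface too: 5 of the 8, all tested, passed as higher and 0 as lower, with a median change of 0.49. Their summed linear signal was 22901 to 28585 in surface samples and 16759 to 20767 in crypt base samples, without overlap. The part of this difference in the changes of the 4 genes was not tested. Other cells were captured as well. Acta2, an actin of smooth muscle, averaged 11.75 at the surface and 12.59 at the crypt base, and Actg2, another smooth muscle actin, averaged 10.96 at the surface and 12.20 at the crypt base. Of leukocyte markers, Laptm5 averaged 11.27 at the surface and 11.46 at the crypt base, and Cd74 averaged 8.88 at the surface and 8.59 at the crypt base. Of fibroblast markers, Dcn averaged 10.00 at the surface and 10.38 at the crypt base, and Col6a1 averaged 9.46 at the surface and 9.19 at the crypt base.

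Of the 11 probes, 6 were detected on at least 4 of the 8 arrays and were tested. At an adjusted p under 0.05, 3 of these were higher at the surface and 2 were lower. Over all 16013 probes tested, 16.5% passed, 9.35% higher and 7.10% lower. The study names these 4 genes in its title, so the count is not independent evidence, and it is given as a description. Klf4 and Hnf4a were the genes higher at the surface, and Hopx and Tcf7l2 were those lower there. The brightest probe of each kept its direction in all 4 pairs, as did 6311 of the 16013 probes tested. How many tested probes have groups without overlap was not counted, so a lack of overlap is given below only as a description. These are bulk samples, in which fewer cells of a type and less RNA per cell cannot be told apart.

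**Figure D1:**
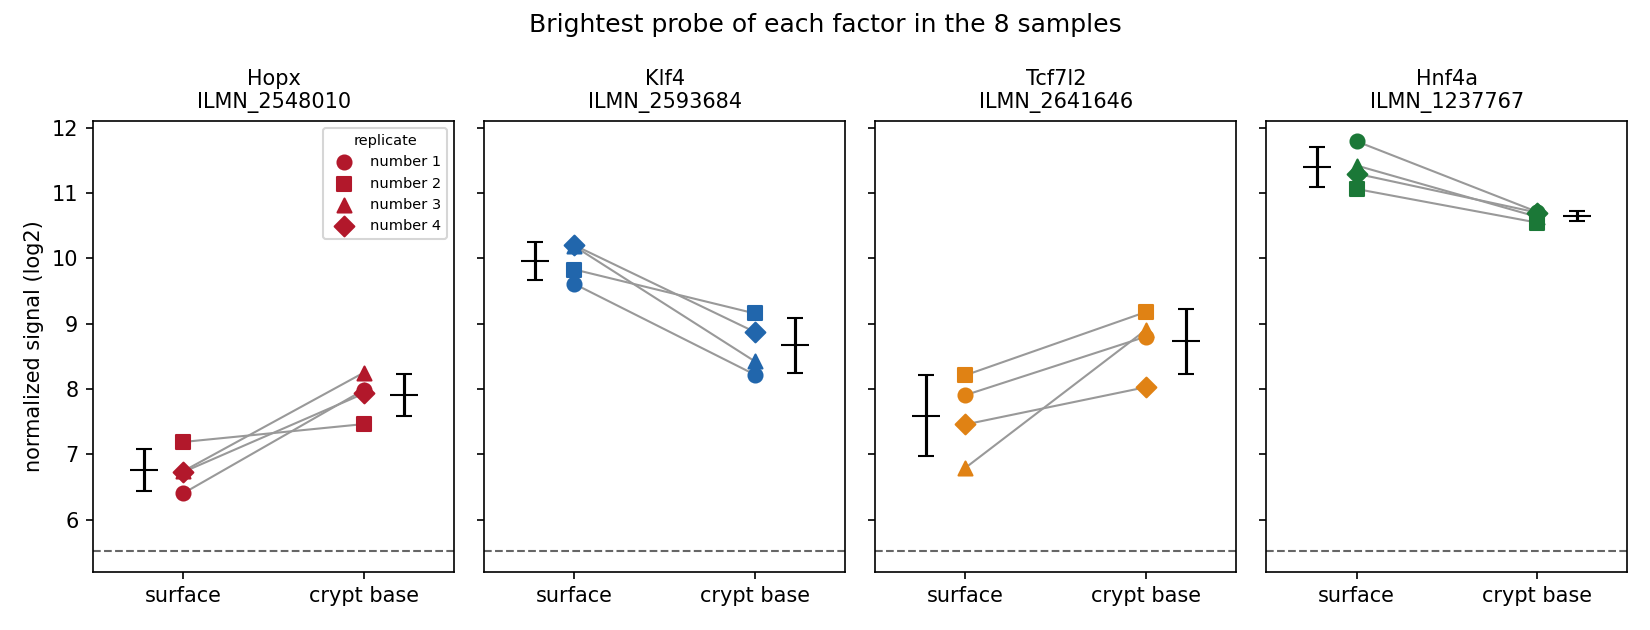
Deposited log2 signal of the brightest probe of each factor in every sample, surface left of crypt base, with lines joining samples of the same number, black bars for the mean ± SD of each group and a dashed line at the background of 5.52. The groups do not overlap for Klf4, Hnf4a and Hopx, and they overlap for Tcf7l2, where surface 2 at 8.21 lies above crypt base 4 at 8.03.

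Klf4 (gene ID 16600, on chromosome 4) was higher at the surface. Its brightest probe, ILMN_2593684, had log2 signals of 9.61, 9.83, 10.19 and 10.20 in surface samples 1 to 4, against 8.22, 9.16, 8.42 and 8.87 in crypt base samples 1 to 4. Every surface sample lay above every crypt base sample, and the highest crypt base value was that of sample 2. The means were 9.96 ± 0.29 at the surface and 8.67 ± 0.43 at the crypt base (SD, n = 4 each). The change of 1.29 ± 0.17, or 2.44-fold, had an adjusted p of 0.0129 and ranked 112th from the top among the 16013 probes. The detection p-value was under 0.05 on 6 of the 8 arrays, although all 8 signals were above background. Without pair 1 the change was 1.25 and its adjusted p 0.0720.

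The other Klf4 probes read close to background. Probe ILMN_1241903 read 6.27, 6.50, 6.18 and 5.98 at the surface, against 5.48, 5.94, 5.83 and 5.38 at the crypt base. The groups did not overlap, though surface 4 and crypt base 2 were separated by little, and 2 of the crypt base signals were under background. Its change was 0.58 ± 0.09 (adjusted p = 0.0166). The adjusted p was 0.0572 without the replicate block, 0.0808 without pair 1 and 0.0639 without pair 4. Probe ILMN_1221264 read 5.80, 5.69, 5.66 and 5.60 at the surface, against 4.59, 5.54, 5.37 and 5.38 at the crypt base, and 3 of the crypt base signals were under background. Here too the groups did not overlap, but the change of 0.47 ± 0.19 did not pass (adjusted p = 0.152). Without pair 1, where crypt base 1 was low, it was 0.22. The 3 probes thus lay in the same direction with unequal size, and the part of signals near background in this was not tested. The mean of the 3 probes changed by 0.78 ± 0.12 (adjusted p = 0.0152).

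Of 10 genes reported in other work to be activated by KLF4 in epithelium, 6 were tested, and 5 were higher and 0 lower at the surface, with a median of 0.77. Over the 9494 genes with a tested probe, taking the brightest probe a gene, 10.9% were higher, 8.92% were lower and the median change was -0.01. Lama3, a laminin chain of epithelial basement membrane, averaged 8.64 at the surface and 6.53 at the crypt base, a change of 2.11 ± 0.18, while its other tested probe changed by 0.12. Cdkn1a, the cell cycle inhibitor p21, averaged 10.19 at the surface and 8.60 at the crypt base, a change of 1.59 ± 0.18. Krt19, a keratin of simple epithelium, changed by 0.79 ± 0.09, with an adjusted p of 0.0117 that became 0.104 without the replicate block. Vdr, the vitamin D receptor, and Jup, the junction protein plakoglobin, made up the rest and are named after their values were seen, with changes of 0.74 and 0.71, and a second Jup probe changed by -0.00. The remaining tested gene, Cdh1, did not pass and is also named after its values were seen. Krt19 and Cdh1 are also among the epithelium markers, whose median change was 0.49. The part of that shift in the list was not tested.

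Of 8 genes known to be repressed by KLF4, 4 were tested, and 0 were higher and 2 lower, with a median of -0.50. Among all genes with a tested probe, 8.92% were lower. Birc5, the cell division protein survivin, averaged 6.26 at the surface and 7.22 at the crypt base, a change of -0.96 ± 0.20 (adjusted p = 0.0275). Ccnd1, cyclin D1 of the cell cycle, changed by -0.63 ± 0.15 (adjusted p = 0.0373), while another of its 5 tested probes changed by -0.04. Birc5 is also among the dividing cell markers, whose summed linear signal was 344 to 578 at the surface and 643 to 804 at the crypt base. Of the 7 markers summed, 4 were above background on all arrays, so part of that sum is background. The part of dividing cells in the changes of Birc5 and Ccnd1 was not tested. Among the other Krüppel-like factors, 9 of 16 were tested and limma called 0 in either direction, with 3 at an unadjusted p under 0.05 and changes between -0.26 and 0.70. Klf5, known for promoting division in crypt cells and named here after its values were seen, averaged 11.19 at the surface and 11.36 at the crypt base.

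Hnf4a (gene ID 15378, on chromosome 2) was higher at the surface and is measured by 1 probe, ILMN_1237767. Its gene has a pair of annotated starts, and which of its transcripts the probe reads was not checked, as probe sequences were not used here, which holds for the Hopx, Tcf7l2 and Klf4 probes too. The windows of 300 bases around them (250 before to 50 after the start, forward strand) are shown because the factors are set in cascades by the series title. The windows are chr2:163506607-163506906 and chr2:163546905-163547204 of GRCm38.p6, from RefSeq. Capitals mark the KLF word CACCC and the HNF1 word GTTAAT, each on either strand, and adjoining words in the second window run together.
Hnf4a first start: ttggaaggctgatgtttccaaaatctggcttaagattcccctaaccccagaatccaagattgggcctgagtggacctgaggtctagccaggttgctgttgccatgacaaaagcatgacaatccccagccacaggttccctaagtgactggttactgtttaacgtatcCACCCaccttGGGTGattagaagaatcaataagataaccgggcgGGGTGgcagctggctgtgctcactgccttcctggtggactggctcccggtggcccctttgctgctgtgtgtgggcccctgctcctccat
Hnf4a second start: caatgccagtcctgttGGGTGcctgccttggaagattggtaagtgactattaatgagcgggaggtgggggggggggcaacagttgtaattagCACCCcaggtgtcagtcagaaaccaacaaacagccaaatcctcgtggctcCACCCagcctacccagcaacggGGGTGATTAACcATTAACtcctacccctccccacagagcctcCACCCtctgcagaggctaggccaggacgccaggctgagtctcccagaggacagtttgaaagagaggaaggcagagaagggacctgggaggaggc
The first window holds the KLF word 3 times and the second holds it 5 times, along with 2 copies of the HNF1 word. Over all 32851 windows of this length, 57.5% hold the KLF word and 7.1% hold the HNF1 word. The words were chosen after the sequences were seen, and a match is only a match of letters.

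Hnf4a signals were 11.79, 11.06, 11.42 and 11.30 in surface samples 1 to 4, against 10.71, 10.55, 10.64 and 10.70 in crypt base samples 1 to 4. The groups did not overlap, the crypt base samples were close together and surface 1 was highest. Means were 11.39 ± 0.30 at the surface and 10.65 ± 0.08 at the crypt base (SD, n = 4 each). The change was 0.74 ± 0.11, or 1.67-fold (adjusted p = 0.0149), and ranked 538th from the top. It was 0.63 (adjusted p = 0.0675) without pair 1 and 0.73 (adjusted p = 0.0508) without pair 3.

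Of 21 genes known as HNF4A targets in liver or intestine, 11 were tested, of which 3 were higher, 1 was lower and 7 did not pass, with a median of 0.12. Over all genes with a tested probe 10.9% were higher and 8.92% lower. Cideb, a lipid droplet protein, averaged 7.92 at the surface and 6.84 at the crypt base, a change of 1.08 ± 0.17. Vil1, the microvillus protein villin, changed by 0.76 ± 0.10, and Pck1, an enzyme of glucose synthesis, by 0.37 ± 0.09, the last with an adjusted p of 0.0366 that became 0.0737 without the replicate block. Ttr, the thyroid hormone carrier transthyretin, went the other way, at 8.97 at the surface and 10.45 at the crypt base, a change of -1.48 ± 0.19. Of 15 factors that act with HNF4A, 9 were tested, and 1 was higher and 0 lower, with a median of -0.03, a share close to the 10.9% over all genes. The gene that passed was Cdx2, the intestinal homeobox factor, with a change of 0.57 ± 0.12 (adjusted p = 0.0294). Its means of 9.07 ± 1.06 at the surface and 8.50 ± 1.25 at the crypt base (SD, n = 4 each) varied more than they differed, and without the replicate block the adjusted p was 0.680. Vil1 and Cdx2 are also among the epithelium markers.

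**Figure D2:**
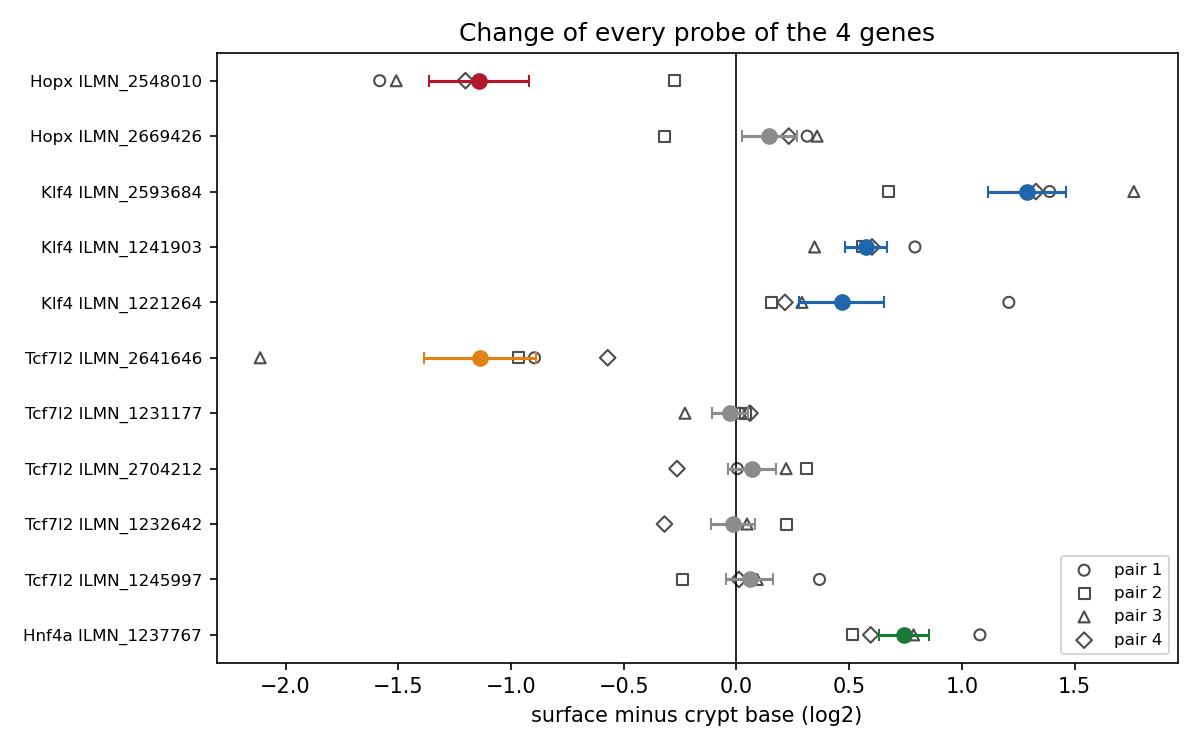
Change (surface minus crypt base, log2) of all 11 probes of the 4 genes, with open symbols for the pairs and filled points for the fitted change ± SE. Coloured points are the 6 tested probes and grey points the 5 detected on 0 arrays, whose error comes from the fit with no filter and whose changes lie between -0.03 and 0.15.

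Hopx (gene ID 74318, on chromosome 5) was lower at the surface. Probe ILMN_2548010 read 6.41, 7.19, 6.74 and 6.73 in surface samples 1 to 4, against 7.99, 7.47, 8.25 and 7.93 in crypt base samples 1 to 4. No value of the groups overlapped, but surface 2 and crypt base 2 came close to each other. The means were 6.77 ± 0.32 at the surface and 7.91 ± 0.33 at the crypt base (SD, n = 4 each). The change of -1.14 ± 0.22 is 2.21-fold lower (adjusted p = 0.0252) and ranked 98th from the bottom. It was -0.995 without pair 1 (adjusted p = 0.114), -1.02 without pair 3 (0.0788) and -1.12 without pair 4 (0.0798). The other Hopx probe, ILMN_2669426, was detected on 0 of 8 arrays and read 4.99 to 5.40 at the surface and 4.98 to 5.31 at the crypt base, all under background.

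In heart, HOPX works with histone deacetylases and SMAD proteins and restrains SRF. Of 9 such partners, 7 were tested, and 1 was higher and 3 lower, with a median of -0.28. Among all genes with a tested probe, 10.9% were higher and 8.92% lower. Smad1, which carries BMP signals, changed by 0.63 ± 0.13, and another of its 3 probes by -0.02. Hdac2, a histone deacetylase, changed by -0.58 ± 0.10 and Hdac3, another, by -0.44 ± 0.10. Smad4, the shared SMAD, changed by -0.45 ± 0.07. Without the replicate block, adjusted p was 0.121 for Hdac3 and 0.136 for Smad4. Of 8 other markers of slow-cycling stem cells 5 were tested, and 0 were higher and 1 lower, with a median of -0.48. That one was Lrig1, an inhibitor of growth factor receptors, at 7.42 at the surface and 8.38 at the crypt base, a change of -0.96 ± 0.15.

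Tcf7l2 (gene ID 21416, on chromosome 19) was measured by 5 probes, of which 1 was detected. Like Hnf4a it has a pair of annotated starts, and their windows are shown with the KLF word CACCC and the TCF/LEF word CTTTGTT in capitals, on either strand. They are chr19:55741560-55741859 and chr19:55895071-55895370 of GRCm38.p6, forward strand, from RefSeq.
Tcf7l2 first start: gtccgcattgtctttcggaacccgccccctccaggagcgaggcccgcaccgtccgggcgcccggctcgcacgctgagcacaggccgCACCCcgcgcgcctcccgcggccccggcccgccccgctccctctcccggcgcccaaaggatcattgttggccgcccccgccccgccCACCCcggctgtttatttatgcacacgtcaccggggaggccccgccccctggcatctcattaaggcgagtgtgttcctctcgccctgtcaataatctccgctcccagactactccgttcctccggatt
Tcf7l2 second start: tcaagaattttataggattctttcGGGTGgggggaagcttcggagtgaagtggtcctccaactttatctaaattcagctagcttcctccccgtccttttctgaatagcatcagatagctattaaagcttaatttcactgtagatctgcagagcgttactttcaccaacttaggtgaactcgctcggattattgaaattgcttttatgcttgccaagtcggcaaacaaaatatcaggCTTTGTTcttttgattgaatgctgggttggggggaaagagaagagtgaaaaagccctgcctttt
The first window holds the KLF word 2 times, and the second holds it once and holds the TCF/LEF word at position -14 from the start. CTTTGAT or CTTTGTT is in 9.3% of the 32851 windows. The HNF4 word CAAAGT, in 14.4% of them, was not among the letters of either Tcf7l2 window. Of the windows not printed, 1 of the 2 for Hopx holds the HNF4 word once, at position -124 from the start, and none of the 4 words is in the other Hopx window or in the 1 window for Klf4.

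Probe ILMN_2641646 of Tcf7l2 read 7.91, 8.21, 6.80 and 7.46 in surface samples 1 to 4, against 8.80, 9.18, 8.91 and 8.03 in crypt base samples 1 to 4. Every pair was lower at the surface, but the groups overlapped, as surface 2 was above crypt base 4. Means were 7.59 ± 0.62 at the surface and 8.73 ± 0.49 at the crypt base (SD, n = 4 each), with an SD above that of 96.0% of tested probes at the surface and 95.7% at the crypt base. The change of -1.14 ± 0.25, 2.20-fold lower, passed (adjusted p = 0.0322) and ranked 101st from the bottom. It did not pass without the replicate block (0.0733), without surface 4 and the block (-1.09, 0.139), or without pair 1 (-1.22, 0.113), pair 2 (-1.19, 0.0693) or pair 4 (-1.33, 0.0562). The 4 other probes were detected on 0 of 8 arrays and lay between 4.54 and 5.35, all under background.

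Of 15 TCF/LEF factors and partners of beta-catenin 10 were tested, and 0 were higher and 1 lower, with a median of -0.10. This share is close to the 8.92% lower over all genes with a tested probe. The gene that passed was Pygo2, a co-activator of beta-catenin, with a change of -0.34 ± 0.08, whose adjusted p was 0.364 without the replicate block. Of 18 Wnt targets known from crypts 7 were tested, and 0 were higher and 4 lower, with a median of -0.63. Smoc2, a matrix protein of stem cells, averaged 5.94 at the surface and 6.84 at the crypt base, a change of -0.90 ± 0.17. Rnf43, a ubiquitin ligase that curbs Wnt receptors, changed by -0.74 ± 0.10, and Axin2, a scaffold that curbs beta-catenin, by -0.72 ± 0.17. Ccnd1 was the remaining one. Without the replicate block the adjusted p was 0.0569 for Rnf43, 0.0883 for Axin2 and 0.0671 for Ccnd1.

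**Figure D3:**
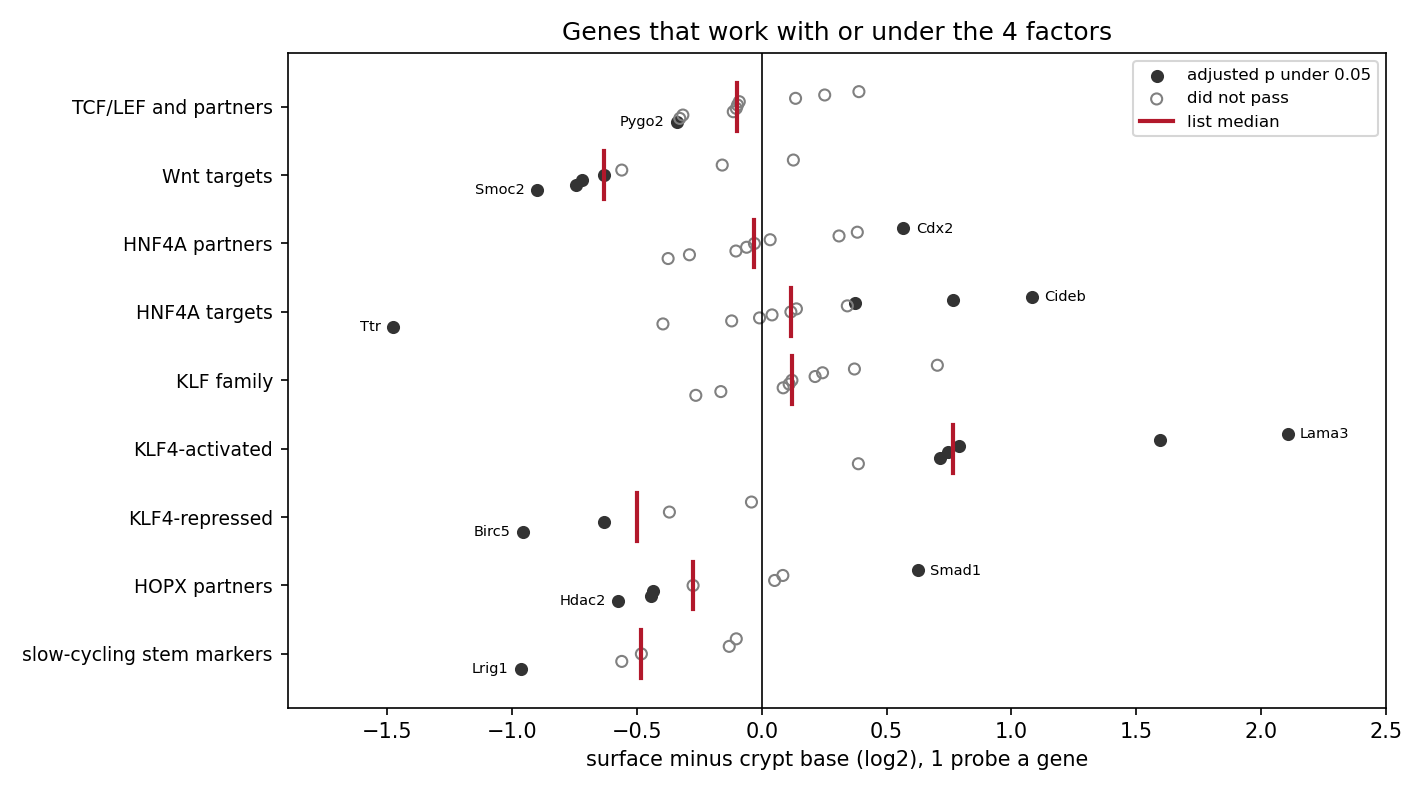
Change (surface minus crypt base, log2) of each tested gene in 9 lists, with the list median as a red bar. The lists hold partners or targets of the factors, other Krüppel-like factors and other markers of slow-cycling stem cells. KLF4-activated genes have a median of 0.77 and Wnt targets one of -0.63, while those of the HNF4A partners and of the TCF/LEF partners are -0.03 and -0.10.

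The size of the change differed between pairs. Pair 2 had the smallest change for Klf4 (0.67, against 1.33 to 1.76 in the other pairs), for Hopx (-0.27, against -1.20 to -1.58) and for Hnf4a (0.51, against 0.60 to 1.08). Over all tested probes pair 2 also had the narrowest spread of changes, with an SD of 0.30 against 0.47 to 0.59. Markers of mature surface colonocytes moved with this: their median change was 0.96 in pair 2 and 1.88 to 2.08 in the other pairs. Their summed linear signal was 17735 to 21435 in surface samples and 6014 to 13106 in crypt base samples, and crypt base 2 was the highest of these. The part of these cells in the smaller change of pair 2 was not tested. Without pair 2 the change was 1.49 for Klf4, -1.43 for Hopx and 0.82 for Hnf4a.

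Tcf7l2 did not follow that order, with changes of -0.90, -0.97, -2.11 and -0.57 in pairs 1 to 4. Smooth muscle markers, of which 6 of 8 were tested and limma called 0 (3 at an unadjusted p under 0.05), had median changes of -1.08, -1.35, 0.32 and -1.17 in pairs 1 to 4. The largest fall of Tcf7l2 was in pair 3, where smooth muscle markers were not lower at the surface. That pair is uncertain. Across probes, surface 3 and crypt base 3 deviated from their groups with a correlation of -0.07, while surface 2 and crypt base 3 gave 0.35. No reading is drawn from pair 3 alone. The summed linear signal of the 8 smooth muscle markers on the array was 2837 to 14051 at the surface and 7429 to 28983 at the crypt base, and its part in the change of Tcf7l2 was not tested. Leukocyte sums of 1955 to 5815 at the surface and 2000 to 4915 at the crypt base overlapped, as did fibroblast sums of 2493 to 3416 at the surface and 2303 to 4096 at the crypt base. Endothelium sums were 1156 to 1366 at the surface and 874 to 1186 at the crypt base, with little overlap. Of these lists, Plvap of endothelium (0.60 ± 0.09, adjusted p = 0.0149) and Col3a1 of fibroblasts (0.55 ± 0.12, adjusted p = 0.0341) passed as higher, both named after their values were seen, and the median change of the endothelium list was 0.29. Pecam1 and Esam, of endothelium, averaged 9.08 and 7.93 at the surface and 8.68 and 7.77 at the crypt base. No neuron or glia marker was above background on all arrays (0 of 6), and the brightest, Uchl1 and Ret, averaged 5.70 and 5.68 at the surface and 6.01 and 5.95 at the crypt base.

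**Figure D4:**
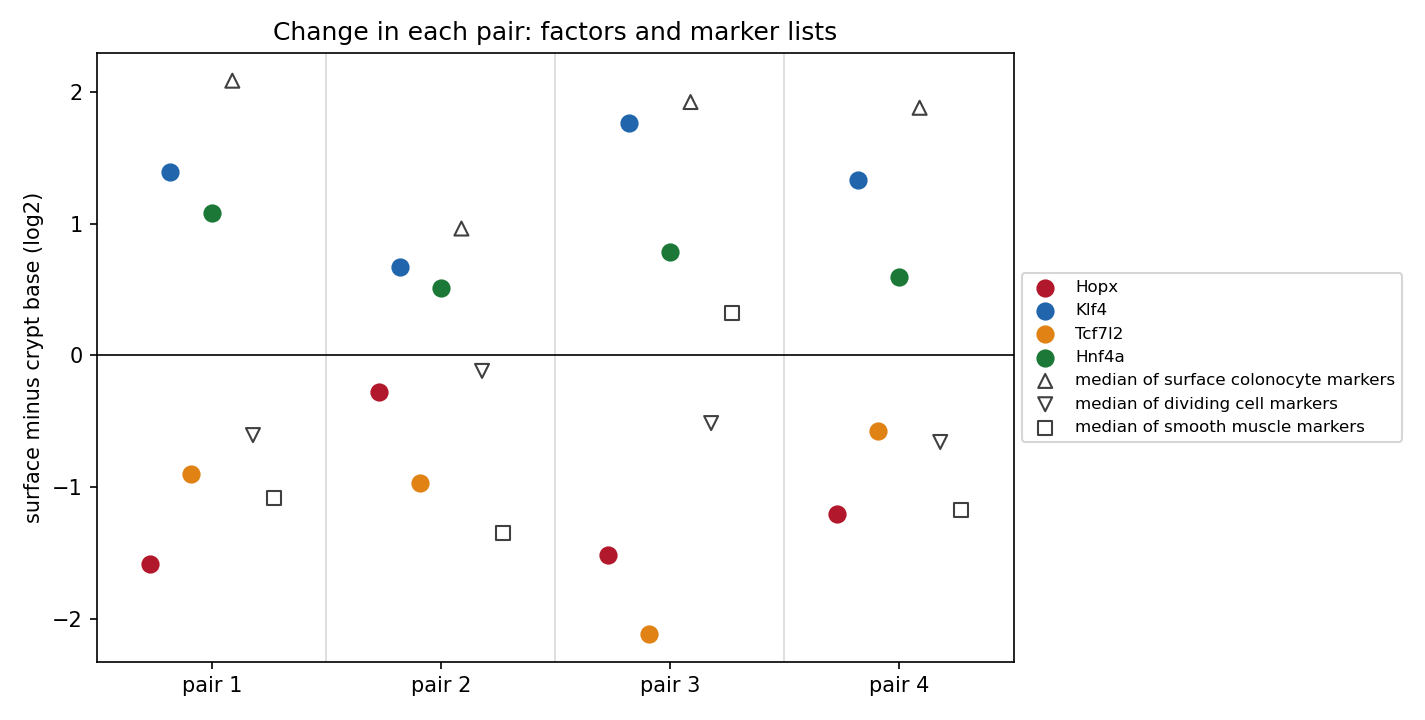
Change in each pair (surface minus crypt base, log2) of the brightest probe of each factor, with the median change of 3 marker lists as open symbols. Pair 2 has the smallest change for Klf4, Hopx and Hnf4a, and pair 3 the largest for Tcf7l2, at -2.11.

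The changes were also taken without surface 4, in fits without the replicate block. They were then 1.21 for Klf4 (adjusted p = 0.0340), 0.78 for Hnf4a (0.0359) and -1.13 for Hopx (0.0345), beside the -1.09 of Tcf7l2 that did not pass. Without pair 1, limma called 0 of the 16013 probes, so that no gene named from the lists passed there either.

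Likeness of profile was taken as the root mean square difference of log2 values over the 8 arrays, each gene centred on its own mean, among 9493 other genes, and clone-named genes are not named. It is a description, since the genes share arrays. The values were not scaled, so the size of a change counts in this measure as well as its pattern. The genes nearest Hopx were Cdca8, of the chromosomal passenger complex (0.108), Pold2, a subunit of DNA polymerase delta (0.110), Rnf186, a ubiquitin ligase (0.142), Siva1 (0.149) and Prmt5, an arginine methyltransferase (0.149). Nearest Klf4 were Sowahb (0.136), Cd55, a regulator of complement (0.146), Sdcbp2 (0.156), Pmp22 (0.161) and Parp12 (0.162). Nearest Hnf4a were Polr2c, a subunit of RNA polymerase II (0.0765), Cyp2d12 (0.0863), Il17rc, a subunit of the IL-17 receptor (0.0898), Dedd2 (0.0919) and Gngt2 (0.0935). Tcf7l2 had no gene as near: Ammecr1 (0.288), Ncapd3, of condensin II (0.329), Tenm4 (0.350), Trim2 (0.382) and Tcof1, of ribosome production (0.388) came first, and the last 2 did not pass the test of change (adjusted p = 0.110 and 0.157). Without pair 4, the 5 nearest genes kept 3 of these for Hopx, 2 for Tcf7l2 and 1 each for Klf4 and Hnf4a.

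Factors that moved the same way were not each other's nearest genes by this measure, in which an unequal size of change sets genes apart. For Hnf4a, Cldn19, named after its values were seen, ranked 4123rd with a change of 0.00, ahead of Klf4. A low rank therefore does not show an unlike pattern. Tcf7l2 ranked 1843rd for Hopx (difference 0.554), and Hopx ranked 314th for Tcf7l2. Hnf4a ranked 652nd for Klf4 (0.505), and Klf4 ranked 5948th for Hnf4a. Of the 11 claudins tested, 1 lay among the 100 genes nearest any factor: Cldn3, ranked 64th for Hnf4a (0.173), whose signals were 10.73 at the surface and 9.69 at the crypt base, a change of 1.04 ± 0.11.

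**Figure D5:**
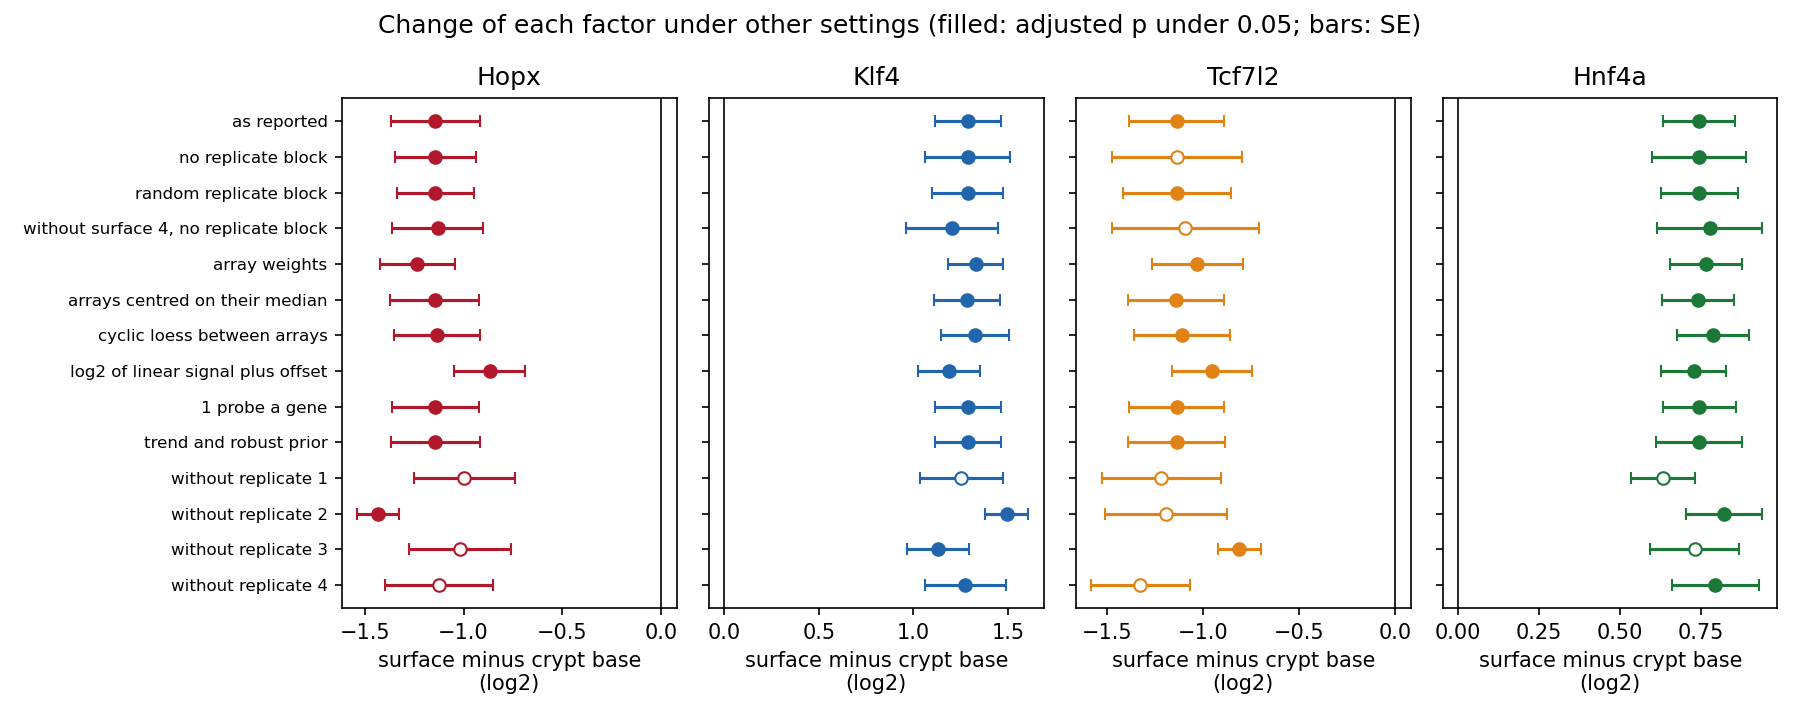
Change (surface minus crypt base, log2) of the brightest probe of each factor with its standard error, as reported and under the alternatives that gave a value for all 4, apart from the fit with no filter; the x axes differ between panels, and points are filled where the adjusted p was under 0.05. Hopx and Tcf7l2 lie below 0 and Klf4 and Hnf4a above 0 in every setting drawn, and without replicate 1 none of the 4 passed.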

How the data were processed

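RNA was measured on 8 Illumina arrays, in 4 surface and 4 crypt base samples. The deposited log2 values of 46632 probes were used as they stand; GenomeStudio is named, with no version, in the submitters' processing notes, and the normalization step was not given in the sources used here. From the deposited detection p-values, only the count of arrays with a p under 0.05 was taken. The 8 signal columns beside them could be tied to no sample by name and were left out.

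Probe names came from the platform annotation (1 symbol for 29976 probes, several for 10, none for 16646), and 29921 were found in the RefSeq table of GRCm38.p6. The 16013 probes detected on at least 4 arrays were fitted with limma 3.58.1 in R 4.3.3 (statmod 1.5.0 for random blocks), the replicate number as a fixed block, two-sided, with Benjamini-Hochberg adjustment at 0.05. The fit was tested on simulated data. It left 3 residual degrees of freedom with 2.95 prior ones, and the number of arrays limits the precision.

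The design text says that each mouse gave both samples; whether the replicate number stands for the mouse is not in the labels. Across probes, samples of the same number deviated from their groups with correlations of 0.44, 0.39, -0.07 and 0.48 for numbers 1 to 4. Unlike numbers gave -0.48 to 0.35. The pairs therefore rest on the design text. If numbers do not mark mice, the p-values of the fit with the block measure spread around arbitrary pairs. The fit without the replicate block measures the spread between samples. It called 1590 of the 16013 probes, against 2635 with the block.

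The members, gene lists and rules were chosen with earlier results of these data known. Named were every probe of the 4 genes, up to 3 genes a list and direction with the largest change past the threshold, the 2 brightest markers of each other cell type, the 5 genes nearest each factor and each claudin among its nearest 100. Names outside this rule are marked where they occur. List values use the brightest probe a gene. Alternatives changed the block, the weights, the scaling, the background, the filter, the unit of the test, the variance prior and the replicates.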

Additional observations from a re-analysis of the deposited data

Results flagged for a closer look

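Among 33 groups of 4 values (the signals of each probe in each group, and its changes by pair), 2 held a value far from the others, and chance alone gives about 1 in 20. The change of Klf4 probe ILMN_1221264 was 1.21 in pair 1, against 0.16 to 0.29 in the other pairs. The change of Tcf7l2 probe ILMN_1231177, which was detected on 0 arrays, was -0.23 in pair 3, against 0.01 to 0.06 in the other pairs.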

How the results depend on the processing

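No change of a tested probe of the 4 genes reversed under the alternatives run, and 71 of these values kept their side of the threshold while 15 did not. Without the replicate block, the paired design being dropped, Tcf7l2 stayed at -1.14 but did not pass (adjusted p = 0.0733), and without surface 4 as well it was -1.09 (0.139); Hopx, Hnf4a and the brightest Klf4 probe passed in both. Leaving out 1 pair at a time gave -1.43 to -0.995 for Hopx, 1.13 to 1.49 for Klf4, -1.33 to -0.81 for Tcf7l2 and 0.63 to 0.82 for Hnf4a. Counts moved more. Over all probes, 903 were higher and 687 lower without the block, and 655 and 419 without surface 4 and the block. Array weights gave 1727 lower. The replicate as a fixed block makes these weights equal within each pair, so they could not weigh down surface 4 alone. They were highest in pair 4, at 1.49. Leaving out a pair gave 0 to 1502 higher and 0 to 1435 lower: without pair 1 limma called 0, with 3681 at an unadjusted p under 0.05 and a lowest adjusted p of 0.0660. Of 77 genes tested in the pathway lists, 14 were higher and 14 lower. Among all genes with a tested probe, 10.9% were higher and 8.92% lower. The 77 genes include the 11 tested claudins, of which 4 were higher and 3 lower. Leaving out a pair gave 0 to 12 of the 77 genes higher and 0 to 16 lower. Without the block 7 of them were lower, and without surface 4 and the block 6 were. The Klf4 probes were not detected on all arrays, so the strictest filter gave no value for them. The cause of these shifts was not tested, other than that fewer samples leave fewer degrees of freedom.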

Other observations

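KLF4 is known for its part in goblet cell differentiation. Of 10 markers of goblet and deep crypt secretory cells 9 were tested, and 2 were higher and 0 lower. The median change was 0.24, in a range from -0.76 to 0.98, so the list did not move as 1 group. Spink4 changed by -0.76 ± 0.23 and Reg4 by -0.42 ± 0.18, and neither passed (adjusted p = 0.0762 and 0.163). Among all genes with a tested probe, 10.9% were higher and 8.92% lower. Tff3, a secreted trefoil peptide, averaged 12.77 at the surface and 11.87 at the crypt base, a change of 0.91 ± 0.08 (adjusted p = 0.0109). Clca1, a secreted mucus protein, changed by 0.98 ± 0.24 (adjusted p = 0.0435, and 0.209 without the replicate block). The brightest, Zg16 and Muc2, averaged 14.00 and 13.59 at the surface and 13.74 and 13.20 at the crypt base, and their changes did not pass (adjusted p = 0.191 and 0.140). Both had high signals, and whether the scale limits a change there was not tested, so no lack of change is read from them. Clca1, which passed, was as bright as Muc2 at the surface, at 13.60, and averaged 12.62 at the crypt base. Tff3, Clca1, Spink4 and Reg4 were named after their values were seen.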
